A study of Mus musculus with 10 samples.

Results

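Acyl-CoA thioesterases cut the thioester bond of fatty acyl-CoA and so give back free fatty acid and coenzyme A. The 9 genes Acot1, Acot2, Acot4, Acot7, Acot8, Acot9, Acot11, Acot12 and Acot13 were examined, out of 18193 mouse genes measured. Members were taken by gene symbol, and each probe set that the platform annotation gives to 1 of these genes alone was kept. This gave 14 of the 45037 probe sets other than controls. Acot12 was read by 3 probe sets, Acot2, Acot4 and Acot11 by 2 each, and the other 5 genes by 1. A further 2 probe sets, which the annotation gives to a member together with a second gene, were left out.

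The arrays hold RNA of brown adipose tissue, the heat-producing fat of rodents, from 5 mice labelled SIRT3 KO and 5 WT mice. All 10 mice were untreated littermates aged about 1 year, on a 129 background. Sirt3 encodes a mitochondrial deacetylase, and the comparison asks which transcripts differ when it is missing. Which part of Sirt3 was deleted was not given in the sources used here. Values are log2 RMA signals, and differences are KO minus WT.

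Thioesterases work against the acyl-CoA synthetases, and together they set how much fatty acid is held in activated form in each compartment of the cell. One class (Acot1, Acot2 and Acot4 among the members) shares an alpha/beta-hydrolase fold and is encoded by neighbouring genes, several of which are known in mouse liver as targets of the fatty acid sensor PPARA. The other class (Acot7, Acot8, Acot9, Acot11, Acot12 and Acot13) is unrelated to the first in sequence and is built on the hotdog fold. Acot11 was first described in brown fat as a transcript induced by cold.

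Acot2, Acot1 and Acot4 follow each other on chromosome 12, and Acot1 and Acot4 had the widest leading probe sets of the family. For this reason the 250 bases before the start of each are shown, from RefSeq on GRCm38.p6, which is a C57BL/6J genome and not that of a 129 mouse. Capitals mark CCAAT or its reverse complement ATTGG, and AGGTCA, the half-site of many nuclear receptors, or its reverse complement TGACCT.
Acot2, chr12:83987611-83987860, plus strand: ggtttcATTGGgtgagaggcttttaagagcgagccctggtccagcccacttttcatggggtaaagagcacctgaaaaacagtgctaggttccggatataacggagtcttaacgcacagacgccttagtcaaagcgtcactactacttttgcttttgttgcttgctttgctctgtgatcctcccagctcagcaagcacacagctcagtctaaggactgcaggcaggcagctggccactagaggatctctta
Acot1, chr12:84009252-84009501, plus strand: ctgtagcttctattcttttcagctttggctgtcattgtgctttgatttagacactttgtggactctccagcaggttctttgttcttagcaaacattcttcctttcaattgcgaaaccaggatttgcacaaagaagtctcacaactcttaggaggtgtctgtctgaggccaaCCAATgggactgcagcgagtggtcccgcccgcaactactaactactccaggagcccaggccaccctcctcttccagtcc
Acot4, chr12:84038129-84038378, plus strand: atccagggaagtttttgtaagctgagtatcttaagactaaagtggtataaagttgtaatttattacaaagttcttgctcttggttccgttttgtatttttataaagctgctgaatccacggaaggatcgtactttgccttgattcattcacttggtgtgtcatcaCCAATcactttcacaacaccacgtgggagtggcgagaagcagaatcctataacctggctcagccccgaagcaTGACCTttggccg

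The start of Acot1 lies 21.6 kb beyond that of Acot2, and the start of Acot4 lies 28.9 kb beyond that of Acot1. Each window holds 1 CCAAT match, in the reverse direction in Acot2. Of all 32851 windows of this length in the table, 33.8% hold such a match on either strand, and 6 of the 8 member genes with a window do. AGGTCA was found once, in Acot4, and not in Acot2 or Acot1; it occurs in 14.0% of all windows and in 2 of the 8 member genes (Acot4 and Acot12). The direct repeat AGGTCANAGGTCA was found in 0 of the 8 and in 0.0335% of all windows. These matches describe letters in a short window and not binding.

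Facts of the whole series bear on what follows. Sirt3 itself was read on its brightest probe set only. Its signals were not lower in the arrays labelled KO (10.32 ± 0.07) than in WT (10.13 ± 0.10, SD, n = 5 each). Whether that probe set lies in the deleted part is not known, so directions below refer to arrays labelled KO. The 10 arrays correlated with each other at 0.988 to 0.997 across probe sets. All 11 measured brown adipocyte markers lay above the median probe set signal of 5.60, with Ucp1, the uncoupling protein, at 14.10 in KO and 14.18 in WT. Skeletal muscle transcripts varied widely, as in Acta1, skeletal actin, which ran from 6.21 to 13.92 in KO and from 10.36 to 13.86 in WT. The mean of 21 of them was 5.64, 10.83, 5.38, 10.86 and 9.82 in KO 1 to 5, and 10.92, 11.47, 10.85, 9.28 and 7.43 in WT 1 to 5. A sign of RNA quality also moved with genotype: the 3' minus 5' control signal of Pcx was 2.88 ± 0.07 in KO and 3.25 ± 0.20 in WT (SD, n = 5 each). Its part in the differences below was not tested.

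No member passed the test between KO and WT, and each difference was smaller than the pooled within-group SD of its probe set. By limma, 0 of the 14 probe sets had an adjusted p under 0.05 over all 45037 probe sets, and the background share was 0% (0 called). At an unadjusted p under 0.05 there were also 0 of 14, where the background share was 5.43%. Groups overlapped in all 14 probe sets, against a background share of 0.711% that did not overlap. Averages were higher in KO in 7 probe sets and lower in 7 (48.1% of all probe sets were higher), and the median difference was 0.00099 for members and -0.0043 for all. The smallest adjusted p among members was 0.899 and the smallest of all probe sets was 0.896. In bulk tissue, fewer cells of a type and less RNA per cell cannot be told apart.

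**Figure D1:**
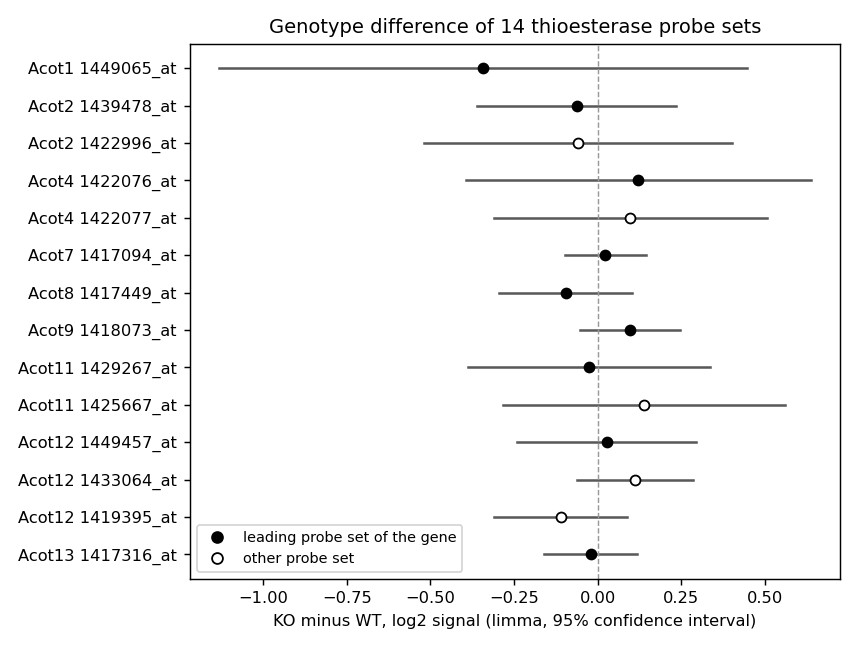
KO minus WT difference in log2 signal for each of the 14 thioesterase probe sets, with the 95% confidence interval of the limma fit (5 KO and 5 WT arrays). Filled points are the brightest probe set of each gene, open points the others; every interval crosses 0, and they are widest for Acot1 (-1.13 to 0.45) and narrowest for Acot7 (-0.099 to 0.14).

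Acot1 and Acot4 varied most between mice among the leading probe sets. Acot1, a cytosolic thioesterase of long-chain acyl-CoA, gave 4.49, 5.49, 4.67, 4.43 and 5.80 in KO 1 to 5, against 4.64, 4.48, 5.41, 6.20 and 5.86 in WT 1 to 5. These values fell into separate sets, with 5 arrays from 4.43 to 4.67 and 5 from 5.41 to 6.20, and both sets held mice of each genotype. The gap between the sets was 0.74 log2 units, or 0.42 of the range. How often other probe sets show such a gap was not counted. KO 2, KO 5, WT 3, WT 4 and WT 5 made up the upper set. Means were 4.97 ± 0.63 in KO and 5.32 ± 0.75 in WT (SD, n = 5 each), a difference of -0.34 ± 0.36 (SE, limma adjusted p = 0.926). Without both WT 4 and WT 5 it turned to 0.13, without WT 4 alone it was -0.12, and without WT 2 alone it was -0.55. WT 4 and WT 5 gave the highest WT values, so leaving out both had to raise the difference. The probe set was dim, at the 41.9th percentile of mean signal, and RMA gives no detection call, so how far the lower set lay above background is not known.

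Acot4, a peroxisomal thioesterase that in mouse acts on succinyl-CoA and dicarboxylic acyl-CoA, gave 5.57, 6.09, 5.56, 5.54 and 6.71 in KO 1 to 5, against 5.37, 5.40, 6.02, 6.20 and 5.87 in WT 1 to 5. On this leading probe set, the 5 arrays with the higher values were the same as those in the upper set of Acot1. KO 5 was the highest array, 0.51 above the next. The difference was 0.12 ± 0.24 (limma adjusted p = 0.959), and without KO 5 it turned to -0.082. A second, dimmer probe set ran from 4.99 to 6.09 in KO and from 5.06 to 5.49 in WT, with a difference of 0.097 ± 0.19 that turned to -0.080 without KO 5. Its 5 highest arrays were KO 2, KO 5, WT 2, WT 3 and WT 4, so WT 2 (5.37) stood in place of WT 5 (5.15). The signals of both Acot4 probe sets correlated over the 10 arrays (r = 0.84, rho = 0.64, permutation p = 0.00347 for r and 0.0514 for rho). For r the adjusted p was 0.0069 over 4 same-gene pairs, and r was 0.68 without KO 5 and WT 4, the arrays farthest from the median.

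Acot2, the mitochondrial long-chain member, was much brighter on its leading probe set. It gave 9.91, 9.92, 10.08, 9.52 and 10.47 in KO 1 to 5, against 10.03, 9.99, 10.11, 10.11 and 9.97 in WT 1 to 5. The WT arrays lay within 0.14 log2 units of each other, while KO 1, KO 2 and KO 4 lay below them all and KO 5 above them all. The SD was 0.34 in KO and 0.065 in WT, and whether these spreads differ was not tested. On the second probe set KO 4 was again lowest at 6.54 and KO 5 highest at 7.97, with the other 8 arrays from 7.30 to 7.67. Differences were -0.063 ± 0.14 and -0.059 ± 0.21 on the 2 probe sets (limma adjusted p = 0.963 and 0.979). They turned to 0.053 and 0.17 without KO 4, and were -0.18 and -0.19 without KO 5. The 2 probe sets correlated at r = 0.89 (rho = 0.60, permutation p = 0.00517 for r and 0.0737 for rho, adjusted p = 0.0069 for r), but at r = 0.17 without KO 4 and KO 5, so the relation rests on those mice.

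**Figure D2:**
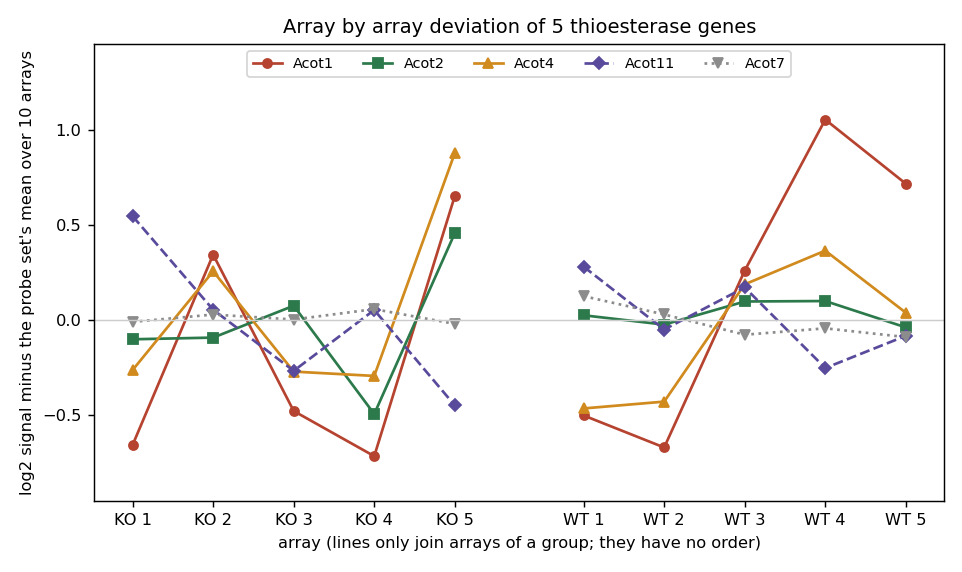
Log2 signal in each of the 10 arrays minus the mean of that probe set over all arrays, for the leading probe sets of 5 genes, KO arrays left and WT arrays right; lines only guide the eye. Acot1 and Acot4 are high in KO 2, KO 5, WT 3, WT 4 and WT 5, Acot2 departs mainly in KO 4 and KO 5, Acot11 is highest in KO 1 and lowest in KO 5, and Acot7 stays near 0 throughout.

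Acot11, the cold-induced thioesterase of brown fat that also carries a lipid-binding START domain, had the brightest member probe set, at the 98.8th percentile of mean signal. It gave 12.56, 12.07, 11.75, 12.07 and 11.56 in KO 1 to 5, against 12.29, 11.96, 12.18, 11.76 and 11.93 in WT 1 to 5. KO 1 was the highest array and KO 5 the lowest, so all WT values lay inside the KO range. The difference was -0.026 ± 0.17 (limma adjusted p = 0.989), and it was -0.17 without KO 1 and 0.083 without KO 5. On the second probe set KO 1 was again highest at 10.02, 0.57 above the next array, and WT 4 (8.80) and KO 5 (8.83) were lowest. That set differed by 0.14 ± 0.19 (limma adjusted p = 0.944), or by -0.026 without KO 1 and by -0.054 without both WT 4 and WT 5. The 2 probe sets followed each other over the 10 arrays (r = 0.91, rho = 0.90, permutation p = 0.0005 for r and 0.00084 for rho, adjusted p = 0.002 for r), and r was 0.74 without KO 1 and KO 5.

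The remaining mitochondrial members were steady. Acot13, which associates with mitochondria and binds a phosphatidylcholine transfer protein, gave 11.14, 11.19, 11.34, 11.09 and 11.22 in KO 1 to 5, against 11.18, 11.23, 11.30, 11.10 and 11.28 in WT 1 to 5. Its difference was -0.021 ± 0.063, with a 95% interval of -0.16 to 0.12 (limma adjusted p = 0.974). Acot9, an enzyme of the mitochondrial matrix, gave 10.27, 10.09, 10.37, 10.25 and 10.34 in KO 1 to 5, against 10.24, 10.27, 10.17, 10.07 and 10.08 in WT 1 to 5. KO 3 and KO 5 lay above every WT array, while KO 2 lay among the lowest. The difference was 0.096 ± 0.068 (95% interval -0.053 to 0.24, limma adjusted p = 0.899). It ran from 0.036 without both WT 4 and WT 5 to 0.14 without KO 2 and did not turn under the 21 alternatives. These reuse the same arrays and are no independent support. Filters on other probe sets, variance models and the replicate block cannot change the difference at all.

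Acot8, a peroxisomal thioesterase of broad specificity, gave 8.30, 8.40, 8.15, 8.02 and 8.32 in KO 1 to 5, against 8.19, 8.14, 8.48, 8.44 and 8.43 in WT 1 to 5. WT 3, WT 4 and WT 5 lay above every KO array, and KO 4 was lowest. With KO 2 and KO 5 next in order, its 5 highest arrays were the same as those of Acot1 and of the leading Acot4 probe set. The difference was -0.096 ± 0.092 (95% interval -0.30 to 0.10, limma adjusted p = 0.918). It did not turn under the 21 alternatives, which reuse the same arrays and in part cannot change it. It ran from -0.15 without WT 2 to -0.029 without both WT 4 and WT 5, and was -0.042 without KO 4.

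Acot7, a cytosolic enzyme best known from brain, varied least of all members. Its values were 7.95, 7.99, 7.96, 8.02 and 7.94 in KO 1 to 5, against 8.08, 7.99, 7.88, 7.92 and 7.87 in WT 1 to 5. The KO arrays lay within 0.077 log2 units of each other and inside the WT range. The difference was 0.023 ± 0.056 (95% interval -0.099 to 0.14, limma adjusted p = 0.968). It ran from 0.0033 without WT 5 to 0.057 without WT 1 and turned to -0.014 without both WT 4 and WT 5. Nerve markers were mostly dim, with 3 of 11 measured above the median signal. Their mean ran from 4.84 to 4.92 in KO and from 4.82 to 4.91 in WT. S100b was the exception, at a mean of 10.82 in KO and 10.44 in WT.

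Acot12, a cytosolic acetyl-CoA hydrolase of liver, was dim on all 3 of its probe sets, with mean signals of 5.05, 4.49 and 2.97, below the median probe set. The brightest gave 4.99, 5.06, 5.27, 4.99 and 5.03 in KO 1 to 5, against 4.91, 4.63, 5.12, 5.14 and 5.40 in WT 1 to 5. Differences were 0.027 ± 0.12, 0.11 ± 0.080 and -0.11 ± 0.091, so the probe sets did not share a direction. The brightest and the dimmest gave no correlation past the test over the arrays (r = 0.31, rho = 0.42, permutation p = 0.388 and 0.232). Values of the middle probe set had a gap of 0.13 log2 units, or 0.36 of the range, between 7 lower and 3 higher arrays. Probe sets with a wide gap and several arrays on each side were left out of correlations, so none is given for it. This gap was near the pooled SD of 0.13, so the split may mean little. Hepatocyte markers were mostly dim as well, with 3 of 8 measured above the median signal. Their mean ran from 5.35 to 5.73 in KO and from 5.45 to 5.97 in WT. Cyp2e1 was the exception, with a mean of 8.19 and values from 6.38 (KO 5) to 11.53 (WT 4).

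**Figure D3:**
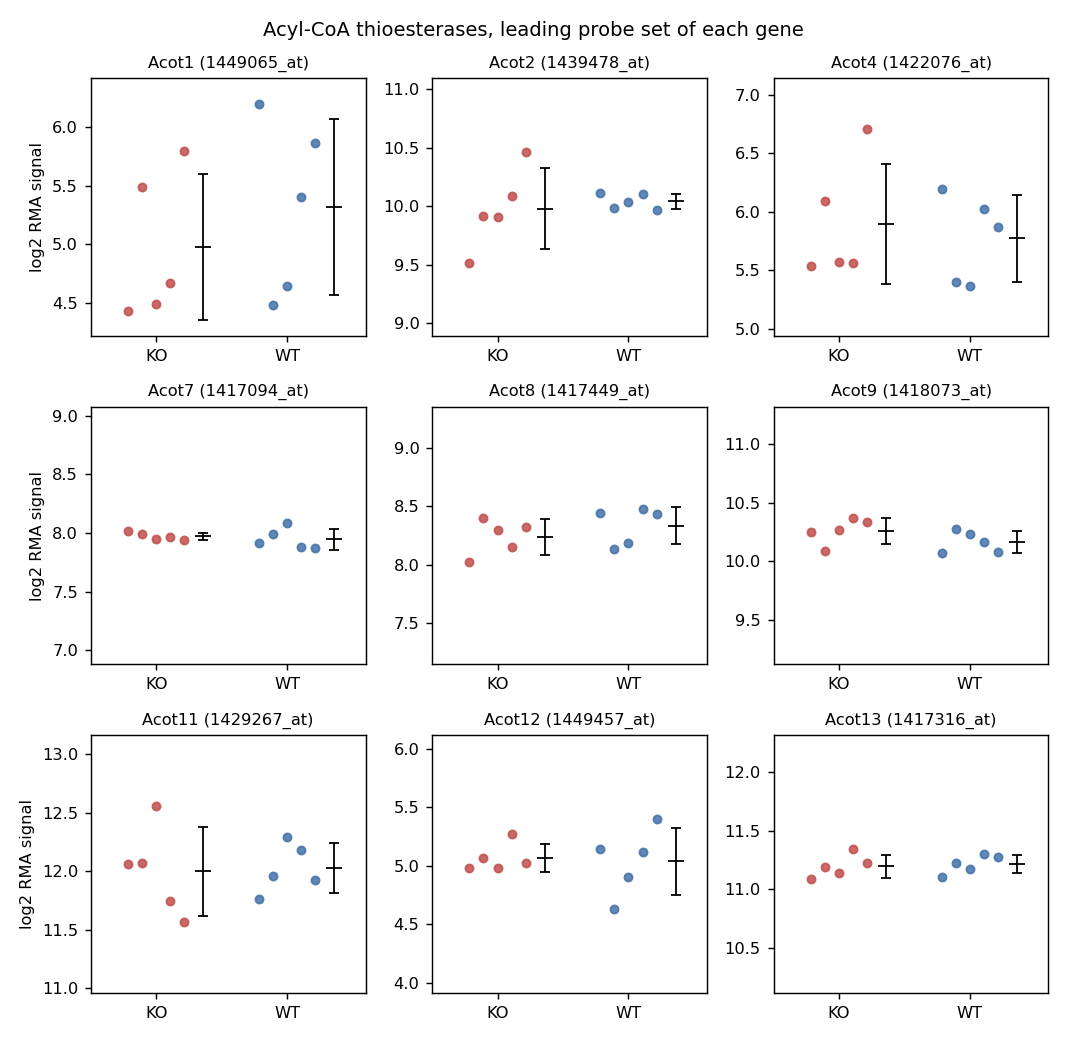
Log2 RMA signal of the leading probe set of each thioesterase gene in 5 KO arrays (red, left) and 5 WT arrays (blue, right); each point is 1 mouse, and the black bar is the mean ± SD of the group. All panels span the same height in log2 units, so the wide scatter of Acot1 (4.43 to 6.20) can be set against the narrow one of Acot7 (7.87 to 8.08).

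Signals of different probe sets depend also on how well the probes bind, so their order is not an order of transcript amounts. By mean signal over 10 arrays the leading probe sets ran Acot11 (12.01), Acot13 (11.21), Acot9 (10.21), Acot2 (10.01), Acot8 (8.29), Acot7 (7.96), Acot4 (5.83), Acot1 (5.15) and Acot12 (5.05). The last pair lay closer to each other than the spread of either. In all, 9 of the 14 probe sets lay above the median probe set.

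The leading probe sets were also ordered by pooled within-group SD. Acot1 had the widest spread, at 0.69 log2 units (95% interval 0.47 to 1.32), which is the 99.2nd percentile of all probe sets. Acot4 followed at 0.45 (0.30 to 0.86, 98.1st percentile), Acot11 at 0.31 (0.21 to 0.59, 95.2nd percentile) and Acot2 at 0.25 (0.17 to 0.47, 91.5th percentile). The intervals of neighbours in this order overlap. Acot12 at 0.22 and Acot8 at 0.15 lay between. At the other end stood Acot9 at 0.10 (28.1st percentile), Acot13 at 0.088 (18.2nd percentile) and Acot7 at 0.067 (0.045 to 0.13, 6.34th percentile). The spread of Acot1 was 10.3 times that of Acot7, and their intervals do not overlap.

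The second probe sets of 3 of these genes were wide too, at 0.40 for Acot2 (97.4th percentile), 0.36 for Acot11 (96.8th percentile) and 0.35 for Acot4 (96.5th percentile). In total 6 of the 14 probe sets, from Acot1, Acot2, Acot4 and Acot11, were among the most variable 5% of all probe sets. The median pooled SD was 0.23 over the member probe sets and 0.13 over all. Members share genes and, for neighbouring paralogs, sequence, so these are not independent counts.

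**Figure D4:**
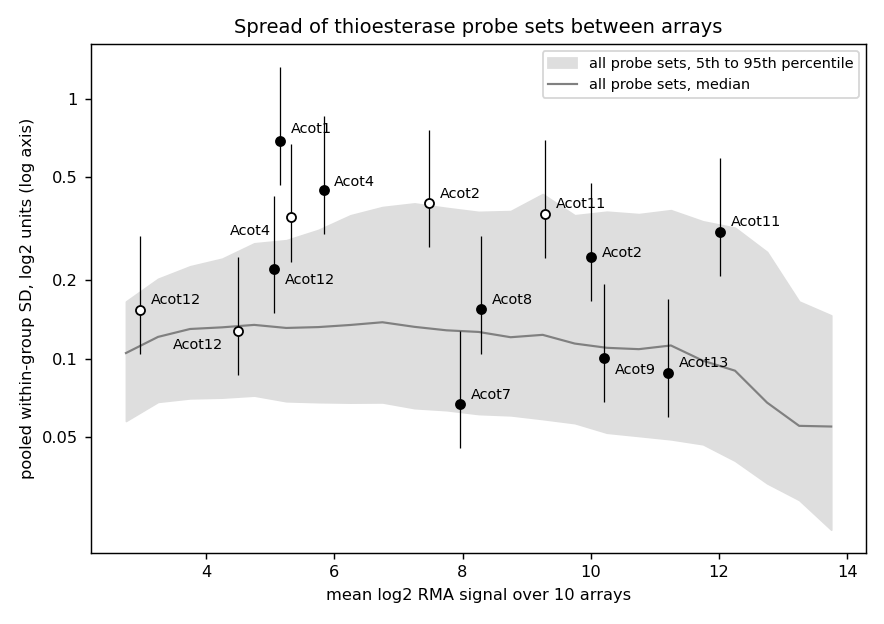
Pooled within-group SD (log axis, with 95% interval) against mean log2 signal over 10 arrays for the 14 thioesterase probe sets; filled points are leading probe sets, and the grey band and line give the 5th to 95th percentile and the median of all probe sets of like signal. Acot1 (SD 0.69) and Acot4 (0.45) stand above the band, and Acot7 (0.067) at its lower edge. The leading Acot11 probe set (0.31) and the second one of Acot2 (0.40) lie near the upper edge. The leading Acot2 probe set (0.25) and the second one of Acot11 (0.36) lie inside the band.

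No pair of members passed the test of correlation. Since the values of Acot1 fell into separate sets of 5 arrays, no correlation is given for it. Among the other 8 leading probe sets, 28 pairs were compared over 10 arrays: 14 were positive, the median r was 0.0024, and 0 passed adjustment over the 28 pairs (3 had an unadjusted permutation p under 0.05). Those 3 all involved Acot8. It ran with Acot4 at r = 0.64 (rho = 0.73), opposite to Acot7 at r = -0.72 (rho = -0.81) and opposite to Acot9 at r = -0.67 (rho = -0.67). Permutation p was 0.0454, 0.0187 and 0.0380 for r, 0.0195, 0.0074 and 0.0391 for rho, and 0.369 for each r after adjustment. Each r was also taken without the 2 arrays farthest from the median of 1 gene of the pair. With Acot4 it was 0.82 without KO 5 and WT 4, the farthest in Acot4. With Acot7 it was -0.79 without WT 1 and WT 5, the farthest in Acot7. With Acot9 it was -0.78 without KO 4 and WT 2, the farthest in Acot8. Acot2 and Acot4 gave r = 0.64 (rho = 0.48, permutation p = 0.0559 and 0.168, adjusted p = 0.369 for r), and 0.20 without KO 4 and KO 5. Acot4 lies on the same chromosome as Acot1 and Acot2, and how far their probe sets read each other's transcripts was not tested.

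Genes whose pattern was most like that of Acot4 and Acot11, the 2 members with the widest leading probe sets among those above the median signal, were named by the correlation of deviations from the group means over 10 arrays. For Acot4 these were Tm9sf2 (r = 0.97), Ddx47 (0.96), St3gal5 (0.96), Zfp24 (0.95) and Utp4 (0.95). St3gal5, a sialyltransferase that makes the ganglioside GM3, gave 8.45, 8.87, 8.23, 8.34 and 10.22 in KO 1 to 5, against 8.30, 8.31, 9.13, 9.60 and 9.59 in WT 1 to 5. KO 2, KO 5, WT 3, WT 4 and WT 5 were again its highest arrays. For Acot11 they were Serpina12 (0.96), which encodes the adipokine vaspin, Polr2m (0.95), Cdk17 (0.95), Prdm16 (0.94), a regulator of brown fat identity, and Arhgap26 (0.94). Prdm16 gave 8.31, 8.01, 7.72, 8.08 and 7.46 in KO 1 to 5, against 8.09, 7.87, 8.10, 7.88 and 7.89 in WT 1 to 5, so that KO 1 was highest and KO 5 lowest, as in Acot11. These are the extremes of a ranking over all candidate genes and are given as a description.

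No member had a called slope on muscle RNA. With genotype in the model, 0 of the 14 probe sets had a limma adjusted p under 0.05 for the slope on the muscle list mean, where the background share was 0.704%. In addition, 0 had an unadjusted p under 0.05 (background 9.58%). Slopes ran from -0.056 log2 units per unit of the muscle mean (Acot12) to 0.072 (the second probe set of Acot4), and the smallest adjusted p was 0.534.

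Genes around the thioesterases in fatty acid handling gave no call between KO and WT either. Of 83 distinct measured genes in 6 lists (Acot2 among them), 36 were higher and 47 lower on average in KO. By limma 0 had an adjusted p under 0.05, and 2 had an unadjusted p under 0.05, or 2.41% against a background share of 5.43%. Both came from the list of acyl-CoA synthetases. Acsm3, a medium-chain synthetase, averaged 9.80 in KO and 10.15 in WT (difference -0.35 ± 0.14), and Acss1, the mitochondrial acetyl-CoA synthetase, averaged 10.97 in KO and 11.15 in WT (-0.18 ± 0.074), each with a limma adjusted p of 0.896. In that list 5 of 15 measured members were higher and 10 lower, with a median of -0.047. Acss2, the cytosolic acetyl-CoA synthetase, differed by 0.41 ± 0.23. In WT 1 to 5 Acss2 gave 12.67, 12.55, 12.55, 11.47 and 11.70, and Acss1 gave 11.07, 11.00, 11.08, 11.29 and 11.31. WT 4 and WT 5 thus stood apart from the other WT arrays in both genes.

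Other thioesterases, among them those of acyl proteins, were higher in 8 and lower in 6 of 14 measured members (median 0.023). Lypla2, an acyl-protein thioesterase, had the smallest unadjusted p, with a difference of 0.14 ± 0.065. Targets of PPARA were higher in 9 and lower in 7 of 16 (median 0.0047), with Angptl4, a secreted inhibitor of lipoprotein lipase, at 0.52 ± 0.27 and Fgf21, a hormone of fasting, at 0.20 ± 0.099. Angptl4 gave 11.66, 11.91, 10.93, 11.11 and 10.13 in WT 1 to 5, so its WT mean was pulled down most by WT 5. Carnitine shuttle and acyl-CoA dehydrogenase genes were higher in 7 and lower in 10 of 17 (median -0.040), with Etfdh at -0.14 ± 0.067. Coenzyme A synthesis and breakdown genes were higher in 4 and lower in 8 of 12 (median -0.013), with the pantothenate kinase Pank2 at -0.086 ± 0.055. Peroxisomal beta-oxidation genes were higher in 6 and lower in 9 of 15 (median -0.013), with Pecr at -0.27 ± 0.13 and the transporter Abcd2 at 0.51 ± 0.30. In both, WT 4 and WT 5 lay outside the range of the other WT arrays, though not by a wide gap. Pecr gave 8.92 and 8.69 there, against 8.27 to 8.51 in WT 1 to 3. Abcd2 gave 8.77 and 8.98 there, against 9.56 to 10.35 in WT 1 to 3. Medians here stand beside -0.0043 over all probe sets.

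Of the 83 list genes, 12 (14.5%) had the same 5 highest arrays on their leading probe sets as Acot1, where the background share over all probe sets was 1.65%. This was counted after the values of Acot1 were seen and has no test. The shares are of unlike sets: list genes are read on their brightest probe sets, 74 of the 83 above the median signal. The background counts all probe sets, dim ones and those without a gene included. Acot6, another thioesterase, was among the 12. Slc27a2 and Slc25a42 are examples, chosen after their values were seen. Slc27a2, an acyl-CoA synthetase of very long chains, gave 9.84, 11.00, 10.53, 9.77 and 10.89 in KO 1 to 5, against 10.15, 9.98, 10.74, 11.31 and 11.23 in WT 1 to 5. Slc25a42, the mitochondrial carrier of coenzyme A, gave 10.77, 11.13, 10.70, 10.61 and 11.27 in KO 1 to 5, against 10.94, 10.74, 11.21, 11.15 and 11.23 in WT 1 to 5. Pdk4, named in the same way, a kinase of pyruvate dehydrogenase and a PPARA target, had another order, with KO 5 highest (13.62) and WT 5 (13.14), KO 1 (13.15) and KO 3 (13.15) lowest.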

How the data were processed

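Per the submitters' processing notes, the deposited log2 values were made by the authors with RMA, which subtracts background, makes arrays comparable and gives 1 value per probe set, with version and settings not given in the sources used here. RMA makes array distributions alike and gives no detection call. The number of arrays limits the precision. Per the labels' protocols, biotinylated cRNA came from 6 ug of total RNA. Groups came from sample titles. Each array was taken as 1 mouse, and limma p-values set a difference or slope against the variation between these samples.

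Of 45101 rows, 64 were controls. Of the other 45037, 34945 had 1 gene in the platform annotation, 932 several and 9160 none, and 34741 matched RefSeq by gene ID. The probe set with the highest mean leads for each gene. KO minus WT was fitted with limma 3.58.1 in R 4.3.3 (lmFit, eBayes, no covariate) on all 45037, with Benjamini-Hochberg adjustment and a threshold of 0.05. A second fit took the slope on the muscle list mean with genotype. Both were also run on simulated data with independent noise per probe set and an evenly spaced covariate. The muscle list mean of these arrays is not evenly spaced, so that run does not cover it. Correlations used 100000 permutations. Intervals are 95%, and those of an SD use a chi-square with 8 degrees of freedom.

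Named are all member probe sets, the 5 genes most like each of the 2 members whose leading probe sets were widest above the median signal, up to 4 genes with the smallest p of each list, Sirt3, Ucp1 and Acta1. Slc27a2, Pdk4 and Acot6 fall outside this rule and were chosen after their values were seen. Members and lists were chosen with earlier results of these data known. Alternatives covered scaling, a filter on dim probe sets, the choice of probe set, variance models, array weights, the replicate number, muscle transcripts and leaving out arrays. Arrays were left out one at a time, and WT 4 with WT 5. Where these were the extreme WT arrays of a gene, leaving out both moves its difference by construction. The sample titles do not say whether the replicate numbers pair the mice. Deviations of same-numbered arrays correlated between -0.28 and 0.14, which shows no pairing but cannot exclude it.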

Additional observations from a re-analysis of the deposited data

Results flagged for a closer look

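In 38 groups of 5 arrays (14 thioesterase probe sets and 5 checks, in both genotypes), 1 value stood apart from the other 4 by more than 0.71 of the range of its group. This was KO 3 on the brightest Acot12 probe set, at 5.27, against 5.06 in the next KO array (gap over range 0.726). Chance gives about 1 such value in 20 groups, and the probe set is dim.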

How the results depend on the processing

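By limma, 0 of the thioesterase probe sets were called between KO and WT, or for the muscle slope, under every alternative tried, and 0 of the pathway list genes. Over all probe sets 0 were called between KO and WT, with 1 without WT 2 (0 to 1 when each array was left out). For the muscle slope 317 were called, 165 with Acta1 alone as the muscle measure, and 221 to 352 when each array was left out. Whether the replicate numbers pair the mice is not known, so the replicate block is an alternative only. It gave 0 called member probe sets and 0 over all in KO vs WT. For the muscle slope it gave 0 called member probe sets and 262 over all. Signs that turned are of differences or slopes that were not called. Without both WT 4 and WT 5 the difference was 0.13 for Acot1, -0.054 for the second Acot11 probe set and -0.014 for Acot7, and with the muscle covariate it was -0.056 for Acot12 on its brightest probe set. When each array was left out, differences ran from -0.55 to -0.12 for Acot1, from -0.17 to 0.083 and from -0.026 to 0.27 on the Acot11 probe sets, from -0.076 to 0.12 for Acot12, from -0.057 to 0.0055 for Acot13, from -0.18 to 0.053 and from -0.19 to 0.17 for Acot2, and from -0.082 to 0.23 and from -0.080 to 0.19 for Acot4. The muscle slope of Acot1 was 0.0037 with array weights, 0.035 with Acta1 alone, 0.017 with no genotype term and 0.10 without both WT 4 and WT 5. Left-out arrays gave slopes from -0.071 to 0.038 for Acot1, from -0.046 to 0.053 and from -0.050 to 0.040 for Acot11, from -0.024 to 0.00081 for Acot13, from -0.036 to 0.021 and from -0.067 to 0.029 for Acot2, from -0.031 to 0.0021 for Acot8, and from -0.014 to 0.0095 for Acot9. With the replicate block the slope was 0.0063 for Acot11, 0.011 for Acot2 (leading probe sets) and 0.0083 for Acot9. The cause of these changes was not tested. Low signals of Acot1 and Acot12 limit what can be read from them.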
